A study of Drosophila melanogaster with 48 samples.

Results

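The genes described are 10 neighbours of Naglu on chromosome arm 2L, measured in brains of Drosophila melanogaster: CG7231, CG12560, Tg, CG43394, CG34134, Aasdh, Agpat2, dachs, Argl and CG18661. They are the genes within 1 Mb of Naglu that differed between Naglu KO and WG2 flies at a Benjamini-Hochberg adjusted p under 0.05 in edgeR, Naglu itself left out. The window held 281 other tested genes, of 15807 tested in all, and these 10 are all that passed among them. Of all tested genes 0.747% passed in the same comparison. Because the genes were chosen by that comparison, their KO against WG2 values are given below as a description with no test. The question was whether such genes go with the Naglu genotype, with sex and age, or with the chromosome that carries the KO allele.

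RNA was sequenced from samples of 20 brains each, after ribosomal RNA depletion, in 48 libraries from 4 genotypes of 12 libraries. KO is named as a NAGLU knockout, W422X for a stop codon and Y160C for an amino acid change, and WG2 is the genotype for which no NAGLU change is named. Each genotype had 3 libraries in each sex at week 3 and at week 0. The labels give 1 genotype name for each allele and do not say how many lines carry it. They do not say which part of Naglu the KO lacks, and do not give the origin of WG2 relative to the mutants. An effect of the allele and an effect of the rest of the genome of the flies that carry it therefore cannot be told apart within a genotype. Nothing in the labels says that replicates came from separate crosses, so the spread between libraries may be partly technical. In pooled brains, fewer cells of a type and less RNA per cell cannot be told apart either.

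Naglu encodes a lysosomal enzyme of heparan sulfate breakdown, and its human counterpart is lacking in mucopolysaccharidosis IIIB. None of the 10 neighbours is known as a part of that pathway. Genes close to an edited site are inherited with it, since recombination between near loci is rare, so a line can differ from another line in the flanking chromosome as well as at the edit. The dachs protein is an atypical myosin that acts below the cadherins Fat and Dachsous in Hippo signalling and planar polarity. Tg is a transglutaminase that crosslinks proteins in haemolymph clots, and Agpat2 is an acyltransferase of phosphatidic acid synthesis. Argl is argininosuccinate lyase, which releases arginine, and Aasdh is named for aminoadipate-semialdehyde dehydrogenase, an enzyme name from lysine breakdown. No role is given here to the 5 genes that have only a CG number.

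Total counts ran from 8690199 to 55801160 per library. Neuron markers summed to 4780 to 9600 CPM (counts scaled to the total of the library, a level) over the 48 libraries, glia markers to 485 to 1440 CPM, photoreceptor markers to 148 to 3360 CPM, fat body markers to 524 to 3630 CPM, muscle markers to 11.4 to 245 CPM and germ line markers to 3.23 to 16.5 CPM. No marker of these lists or of the haemocyte list was at 0 in every library, and none passed the test in KO against WG2. In 9 libraries more than 14000 genes stood above 0.5 CPM: 4 of KO, 1 of W422X, 3 of Y160C and 1 of WG2, all at week 3. In KO female week 3 replicates 1 and 3, the 6 haemocyte markers summed to between 5990 and 7780 CPM, against 237 to 809 CPM in the other 46 libraries. The sum was high mainly through a single marker, Hml. It averaged 1160 ± 2590 CPM in KO with these 2 libraries and 66.9 ± 33.6 CPM without them (n = 10). High haemocyte markers, as named below, stands for this sum and not for a rise of each marker. Naglu itself stood at 2.10 ± 0.792 CPM in KO, 6.66 ± 1.51 in W422X, 21.2 ± 2.63 in Y160C and 24.7 ± 3.39 in WG2 (SD, n = 12 each).

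The 10 genes lay on both sides of Naglu (2L:8408888-8411868, minus strand, BDGP6.54). To its left were CG7231 (2L:7983946-7986785), CG12560 (2L:8008302-8009477), Tg (2L:8011405-8026898), CG43394 (2L:8145758-8158786) and CG34134 (2L:8190297-8190781). To its right were Aasdh (2L:8445861-8449576), Agpat2 (2L:8449691-8463994), dachs (2L:8466817-8488671), Argl (2L:8939725-8942105) and CG18661 (2L:8997605-8998544). All are protein-coding. The nearest, Aasdh, began 34 kb from Naglu and the farthest, CG18661, 586 kb away. Aasdh, Agpat2 and dachs are direct neighbours of each other: 114 bases part Aasdh from Agpat2 on the same strand, and 2822 bases part Agpat2 from dachs, which is read the other way. CG12560 and Tg are also read away from each other, 1927 bases apart. The genes that flank Naglu most closely were at similar levels in both groups: emb, 0.035 kb away, had 139 ± 19.3 CPM in KO and 145 ± 13.7 in WG2, and CG13398, 0.276 kb away, had 34.2 ± 4.64 CPM in KO and 35.2 ± 2.85 in WG2.

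Of the 10 genes, 6 were higher in KO (dachs, CG12560, Agpat2, Tg, Argl and CG43394; 0.5% of all tested genes passed in this direction) and 4 were lower (Aasdh, CG18661, CG34134 and CG7231; 0.247% of all tested genes). For dachs, CG12560, Agpat2 and Aasdh the ranges of the 12 KO and the 12 WG2 libraries did not overlap, against 0.0696% of all tested genes. The adjoining genes Aasdh, Agpat2 and dachs are 3 of these 4, and of them Aasdh was lower in KO and the others higher. Leaving out the 9 libraries with over 14000 detected genes, again 4 of the 10 did not overlap, against 0.0886% of all genes. The KO and WG2 libraries compared here also chose the genes, so separate ranges are favoured by that choice.

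**Figure D1:**
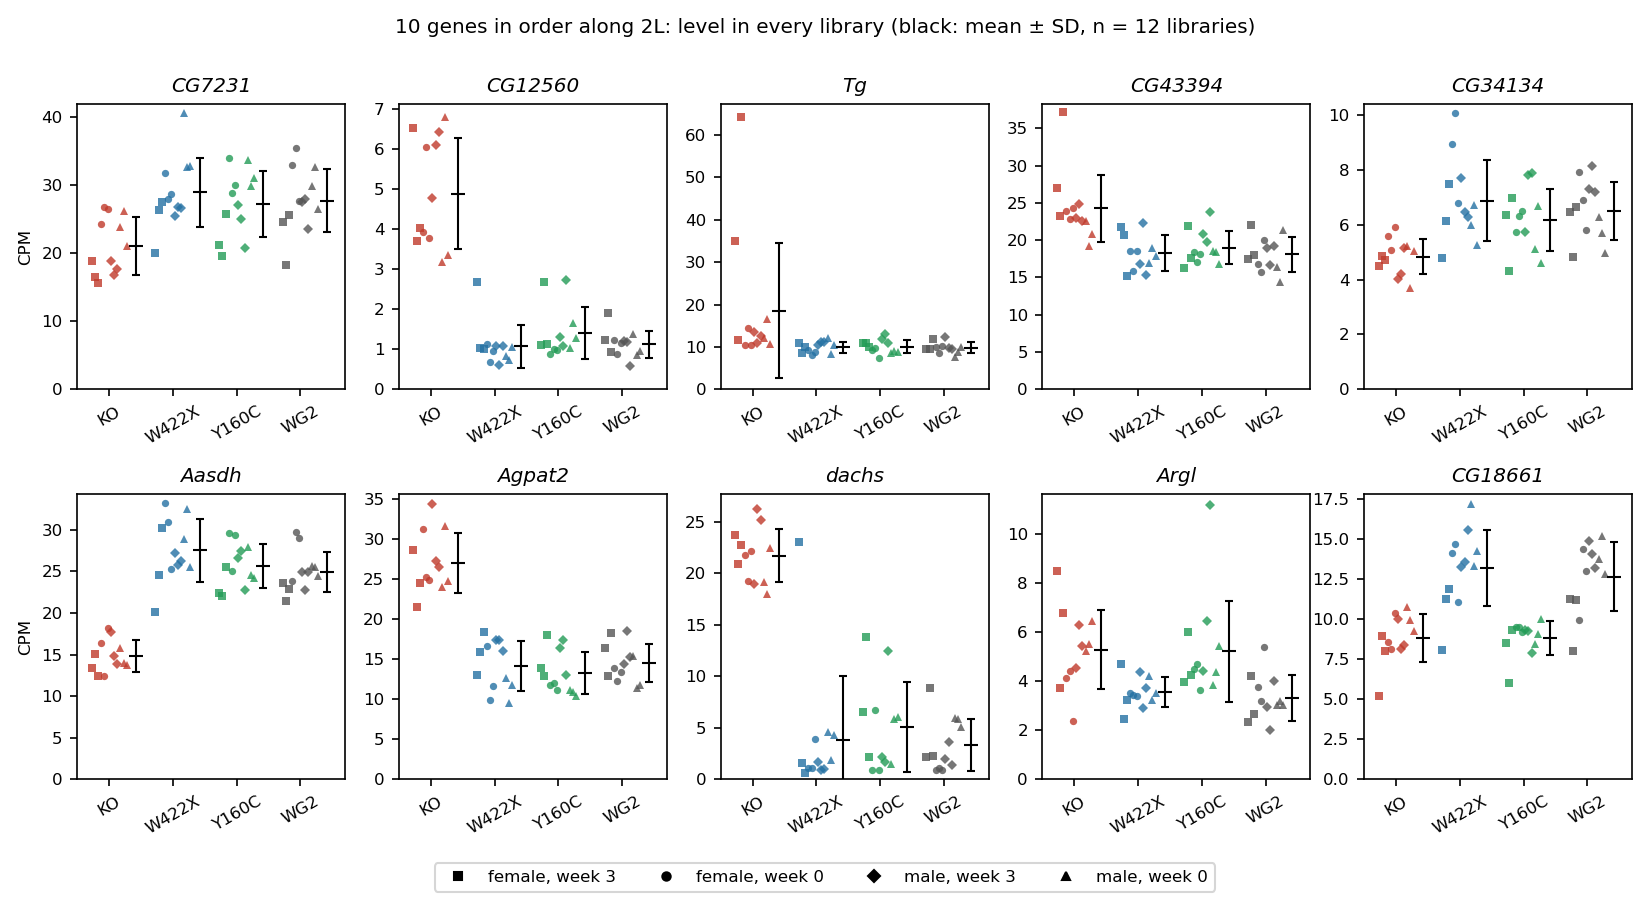
Level in CPM (y axis, linear, from 0) of each of the 10 genes in every library, by genotype, in the order of the genes along 2L. Marker shapes give sex and age, and black bars the mean ± SD of 12 libraries (the W422X bar of dachs runs below 0 and is drawn from 0); the 12 KO libraries of dachs lie between 18 and 26.3 CPM, and of the other genotypes a single W422X library, at 23 CPM, reaches that range.

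dachs showed the largest difference of the 10 on the fold scale. It had 18, 22 and 26.3 CPM (lowest, median and highest of 12 libraries) in KO, against 0.921, 2.27 and 8.86 CPM in WG2. Its log2 fold change was 2.96 ± 0.45 (SE), a 7.77-fold difference. By stratum it was 2.30 ± 0.85 (week 3 females), 4.38 ± 0.99 (week 0 females), 3.34 ± 0.92 (week 3 males) and 1.82 ± 0.84 (week 0 males). W422X libraries had 0.668, 1.65 and 23 CPM, and Y160C libraries 0.917, 4.06 and 13.8 CPM. KO thus varied little, while the other 3 genotypes each held low and intermediate libraries. In WG2 at week 0 these split by sex, with 0.921 to 1.13 CPM in females and 5.12 to 5.93 CPM in males (n = 3 each). KO averaged 21.1 ± 1.58 and 19.9 ± 2.31 CPM in the same strata. In W422X and in Y160C the week 0 ranges of the sexes overlapped. By library, the highest dachs values outside KO were 23 CPM in W422X female week 3 replicate 1, 13.8 CPM in Y160C female week 3 replicate 2, 12.5 CPM in Y160C male week 3 replicate 3 and 8.86 CPM in WG2 female week 3 replicate 2. All 4 are among the 9 libraries with over 14000 detected genes. In the libraries under that number, dachs averaged 20.3 CPM in KO (n = 8), 2.07 CPM in W422X (n = 11), 3.12 CPM in Y160C (n = 9) and 2.86 CPM in WG2 (n = 11). In the libraries over it, dachs averaged 24.5 CPM in KO (n = 4) and 10.9 CPM in Y160C (n = 3). The part of the detected-gene number in these levels was not tested.

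**Figure D2:**
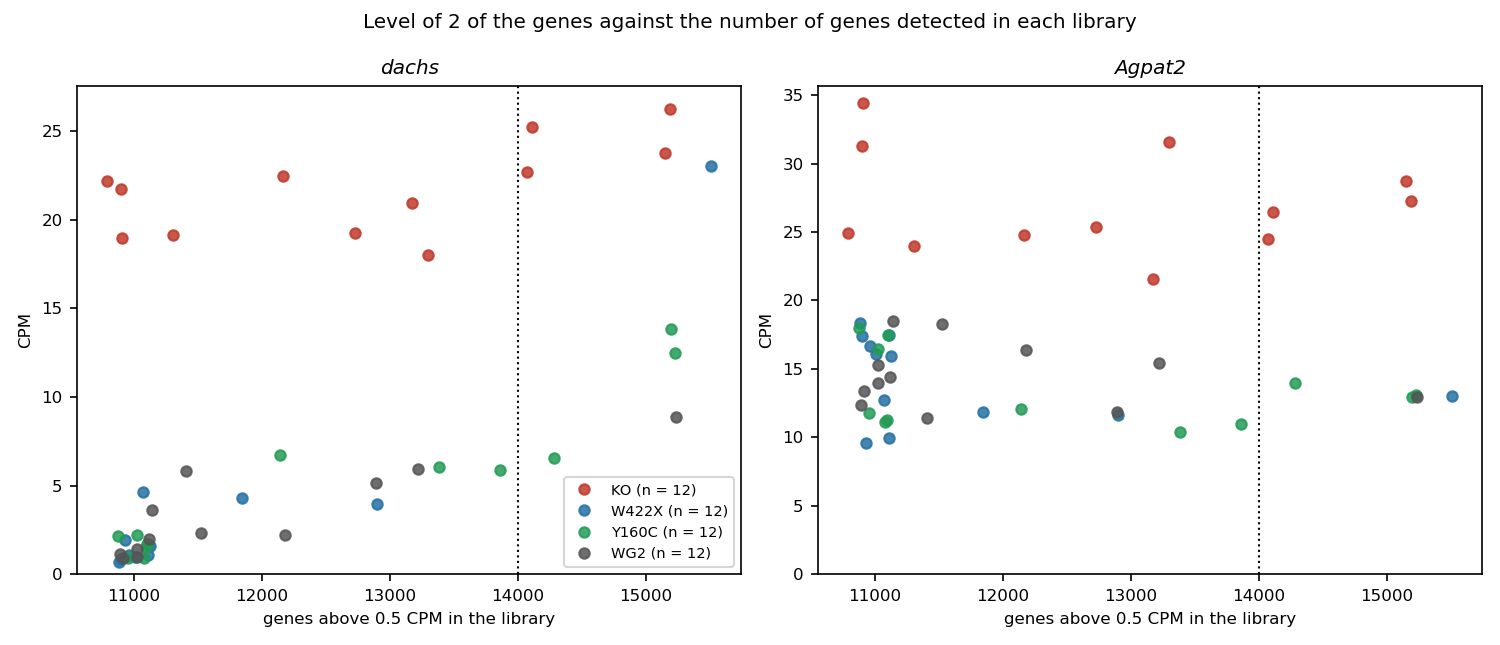
Level in CPM (y axis, from 0) of dachs, left, and Agpat2, right, against the number of genes above 0.5 CPM in the same library (x axis), 1 point for each of the 48 libraries; the dotted line marks 14000 genes. Outside KO, the points of dachs are highest on the right of the line, up to 23 CPM, while the points of Agpat2 stay at or below 18.5 CPM on both sides.

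The W422X library with 23 CPM of dachs was not at the KO level in the other genes whose ranges separated. In it Agpat2 stood at 13 CPM and Aasdh at 20.1 CPM, outside the KO ranges of both genes, and CG12560 stood at 2.69 CPM, under the lowest KO library (3.17 CPM). Counted over the 10 genes, each KO library lay beyond the whole WG2 range, in the direction of the KO mean, for 5 to 10 genes. The genes and the direction were both taken from these KO and WG2 libraries. The KO count therefore follows in part from that choice and is only a description. W422X libraries did so for 0 to 4 genes and Y160C libraries for 0 to 5. The W422X and Y160C libraries with 4 or 5 such genes were all among the 9 with over 14000 detected genes; without those, W422X libraries had 0 to 1 and Y160C libraries 0 to 2, while KO libraries had 5 to 7.

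Agpat2 was higher in KO in each sex and age. Its levels were 21.6, 25.9 and 34.4 CPM in KO, while W422X libraries had 9.59, 14.5 and 18.4 CPM, Y160C libraries 10.4, 12.5 and 18 CPM, and WG2 libraries 11.4, 14.2 and 18.5 CPM. The lowest KO library was above the highest library of any other genotype. The log2 fold change of KO against WG2 was 0.90 ± 0.08, and by stratum it was 0.65 ± 0.17 (week 3 females), 1.04 ± 0.17 (week 0 females), 0.87 ± 0.17 (week 3 males) and 1.05 ± 0.17 (week 0 males).

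Aasdh, 114 bases from Agpat2, was lower in KO. KO libraries had 12.4, 14.4 and 18.1 CPM, W422X libraries 20.1, 26.7 and 33.3 CPM, Y160C libraries 22.1, 25.3 and 29.7 CPM, and WG2 libraries 21.5, 24.7 and 29.7 CPM. Again no KO library overlapped any other genotype, here from below. The log2 fold change was -0.75 ± 0.07, and it lay between -0.82 ± 0.13 (week 0 females) and -0.64 ± 0.13 (week 3 males).

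CG12560 was low outside KO. KO libraries had 3.17, 4.40 and 6.81 CPM, W422X libraries 0.602, 1.02 and 2.69 CPM, Y160C libraries 0.871, 1.12 and 2.73 CPM, and WG2 libraries 0.575, 1.17 and 1.91 CPM. The difference of KO from WG2 was 4.32-fold (log2 fold change 2.11 ± 0.21). The gene lies 399 kb from Naglu, so ranges that do not overlap were not limited to Aasdh, Agpat2 and dachs.

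Tg, the next gene to the right of CG12560 among the 10, overlapped between KO and WG2. KO libraries had 10.5, 12.4 and 64.2 CPM, W422X libraries 8.07, 10.1 and 12.1 CPM, Y160C libraries 7.32, 10 and 13 CPM, and WG2 libraries 7.74, 9.59 and 12.4 CPM. Its 2 highest libraries, 64.2 CPM in KO female week 3 replicate 3 and 34.9 CPM in replicate 1, are those with the high haemocyte markers, mainly Hml. The part of haemocyte RNA in these values was not tested. All 6 haemocyte markers were measured and none was at 0 in every library: their sum was 237 to 7780 CPM in KO, 289 to 507 in W422X, 285 to 488 in Y160C and 317 to 809 in WG2. With all libraries the log2 fold change of Tg was 0.74 ± 0.14, and without those 2 libraries it was 0.33 ± 0.09 and Tg was not among the genes past the threshold. At week 0, where no library had the high markers, Tg had 10.5 to 16.7 CPM in the 6 KO libraries and 7.74 to 10.1 CPM in the 6 WG2 libraries, and these ranges did not overlap.

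The remaining KO differences were smaller, and every one of these genes overlapped between KO and WG2. CG43394 averaged 24.3 ± 4.48 CPM in KO and 18.1 ± 2.31 in WG2, with a log2 fold change of 0.42 ± 0.08. CG7231 averaged 21.1 ± 4.23 CPM in KO and 27.7 ± 4.68 in WG2 (-0.41 ± 0.07). CG34134 averaged 4.83 ± 0.644 CPM in KO and 6.50 ± 1.06 in WG2 (-0.42 ± 0.09). CG18661 averaged 8.83 ± 1.48 CPM in KO and 12.6 ± 2.15 in WG2 (-0.51 ± 0.09), and Argl 5.28 ± 1.61 in KO and 3.32 ± 0.921 in WG2 (0.65 ± 0.15). The W422X and Y160C means were close to those of WG2 for CG43394 (18.3 and 19 CPM), CG7231 (29 and 27.2 CPM) and CG34134 (6.88 and 6.16 CPM). Without the 2 KO libraries with high haemocyte markers, CG34134 (-0.41) and Argl (0.46) were, like Tg, no longer past the threshold that chose them. Among the 48 fits with 1 library left out, CG34134 missed that threshold in 8 and Argl in 7, with differences of -0.46 to -0.34 for CG34134 and 0.58 to 0.77 for Argl.

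Seen by sex and age, 9 of the 10 kept their sign in all 4 strata, against 25.2% of all tested genes. The exception was Argl, whose log2 fold change was 1.03 ± 0.30 for week 3 females, -0.18 ± 0.30 for week 0 females, 0.85 ± 0.31 for week 3 males and 0.89 ± 0.30 for week 0 males. Within week 3, 5 of the 10 did not overlap between the 6 KO and the 6 WG2 libraries (0.285% of all genes), the 4 above and CG43394. Within week 0 it was also 5, with Tg in the place of CG43394 (0.304% of all genes). These strata make up the comparison that chose the genes, so like signs and separate ranges are favoured by that choice. The shares of all genes, which were not so chosen, are therefore not a like background.

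**Figure D3:**
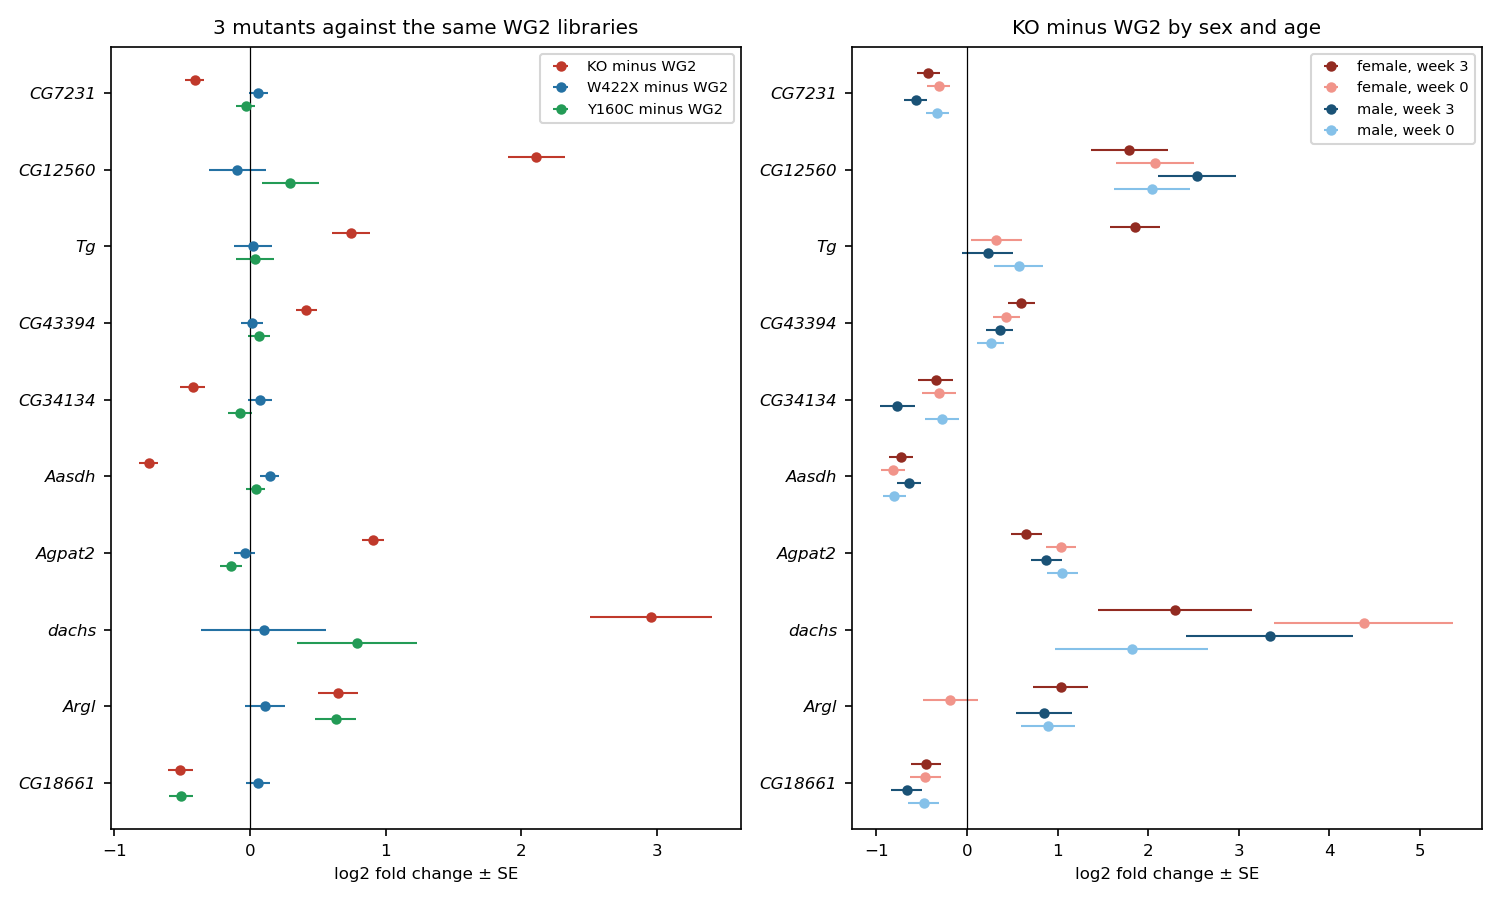
Log2 fold change ± SE (x axis) of each of the 10 genes from a single edgeR fit of 48 libraries. The left panel shows KO, W422X and Y160C against the same 12 WG2 libraries, where only KO is away from 0 for most genes while CG18661 and Argl have like values in KO and Y160C; the right panel shows KO against WG2 in each sex and age, with Argl at -0.18 in week 0 females and on one side of 0 elsewhere.

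Scaled to gene length, the order of the genes differed between KO and WG2. In CPM per kilobase of gene length (RPKM), Agpat2 had 12.6 ± 1.74 in KO and 6.75 ± 1.09 in WG2, and Aasdh 4.32 ± 0.554 in KO and 7.26 ± 0.705 in WG2. Agpat2 was therefore above Aasdh in KO and close to it in WG2, where their SDs overlapped. In WG2 the order ran CG7231 (14.6 RPKM), CG18661 (14.3) and CG34134 (13.4), which did not differ beyond their spread, then Aasdh and Agpat2, then CG43394 (3.92), Tg (3.13), Argl (1.68), CG12560 (1.13) and dachs (0.55). In KO, Agpat2 and CG7231 (11.1 RPKM) led and CG18661 and CG34134 followed at 9.96 RPKM each. Tg (5.94), CG43394 (5.26), CG12560 (4.91) and Aasdh came next. The place of Tg rests on the 2 KO libraries with high haemocyte markers: in the other 10 KO libraries Tg averaged 3.96 ± 0.65 RPKM, below CG43394 (4.92), CG12560 (4.83) and Aasdh (4.42). With all 12 KO libraries the lowest were dachs at 3.55 ± 0.423 and Argl at 2.67 ± 0.813 RPKM.

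The next comparison asked whether the other 2 alleles show the same neighbours. W422X also had a low level of Naglu. Against WG2, the 10 genes had log2 fold changes of -0.10 to 0.14 in W422X, with SEs of 0.07 to 0.46. In Y160C, 7 of the 10 lay between -0.14 and 0.29, and the other 3 were CG18661 at -0.51 ± 0.09, Argl at 0.63 ± 0.15 and dachs at 0.79 ± 0.44. These comparisons share the WG2 libraries with the one that chose the genes and were not tested on them. No gene of the 10 had W422X or Y160C libraries that failed to overlap with WG2, against 0.0696% and 0.108% of all genes, and none separated W422X from Y160C (0.0949%). Against W422X, KO libraries did not overlap for 3 of the 10 (Agpat2, Aasdh and CG12560; 0.0633% of all genes), and against Y160C for 4 (with dachs; 0.133%). KO differed from W422X by 2.86 ± 0.45 in dachs, 2.21 ± 0.21 in CG12560, 0.94 ± 0.08 in Agpat2 and -0.89 ± 0.07 in Aasdh on the log2 scale.

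W422X against Y160C shares no library with KO against WG2 and could be tested. CG18661 was higher in W422X, with 8.08, 13.4 and 17.2 CPM, against 6.02, 9.23 and 10 CPM in Y160C. The log2 fold change was 0.56 ± 0.09 with an edgeR adjusted p of 7.53e-05 over 15807 genes. It was 1 of 10 genes to pass, where 0.443% of all tested genes did. The ranges overlapped through W422X female week 3 replicate 1, at 8.08 CPM. The mean of CG18661 was 8.83 ± 1.48 CPM in KO and 8.84 ± 1.05 in Y160C, and 13.2 ± 2.38 in W422X and 12.6 ± 2.15 in WG2, so the 4 genotypes fell into 2 pairs. Argl had the same pairing of means, at 5.28 ± 1.61 CPM in KO and 5.23 ± 2.06 in Y160C against 3.56 ± 0.624 in W422X and 3.32 ± 0.921 in WG2, but its difference between W422X and Y160C (-0.52 ± 0.15) had an adjusted p of 0.219. Without W422X female week 3 replicate 1, that of Argl was -0.59 ± 0.15 and passed (adjusted p = 0.0446). The other 8 genes had differences of -0.69 ± 0.44 (dachs) to 0.15 ± 0.09 (CG34134).

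W422X against Y160C was then examined over the whole window. Of the 281 genes within 1 Mb, 3 passed in W422X against Y160C (1.07%): CG18661 at 586 kb, aust at 838 kb (-1.51 ± 0.35, adjusted p = 0.0236) and CG34181 at 956 kb (-1.44 ± 0.32, adjusted p = 0.0207), all to the right of Naglu. Without W422X female week 3 replicate 1, 8 passed, among them Uro, 627 kb to the left (-3.36 ± 0.76, adjusted p = 0.0178). The gene aust averaged 1.38 CPM in KO and in Y160C, 0.488 CPM in W422X and 0.603 CPM in WG2. Just past the window, at 1.03 Mb, CG33723 averaged 4.23 ± 1.37 CPM in KO and 4.56 ± 0.984 in Y160C, against 2.46 ± 0.534 in W422X and 2.63 ± 0.705 in WG2. It passed in W422X against Y160C (-0.89 ± 0.14, adjusted p = 0.000115). Within 0.5 Mb of Naglu, where 8 of the 10 neighbours lie, 0 of 151 genes passed in W422X against Y160C in edgeR. With 1 library left out, aust missed the threshold in 8 of 48 fits and CG34181 in 6, and CG18661 in 0.

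**Figure D4:**
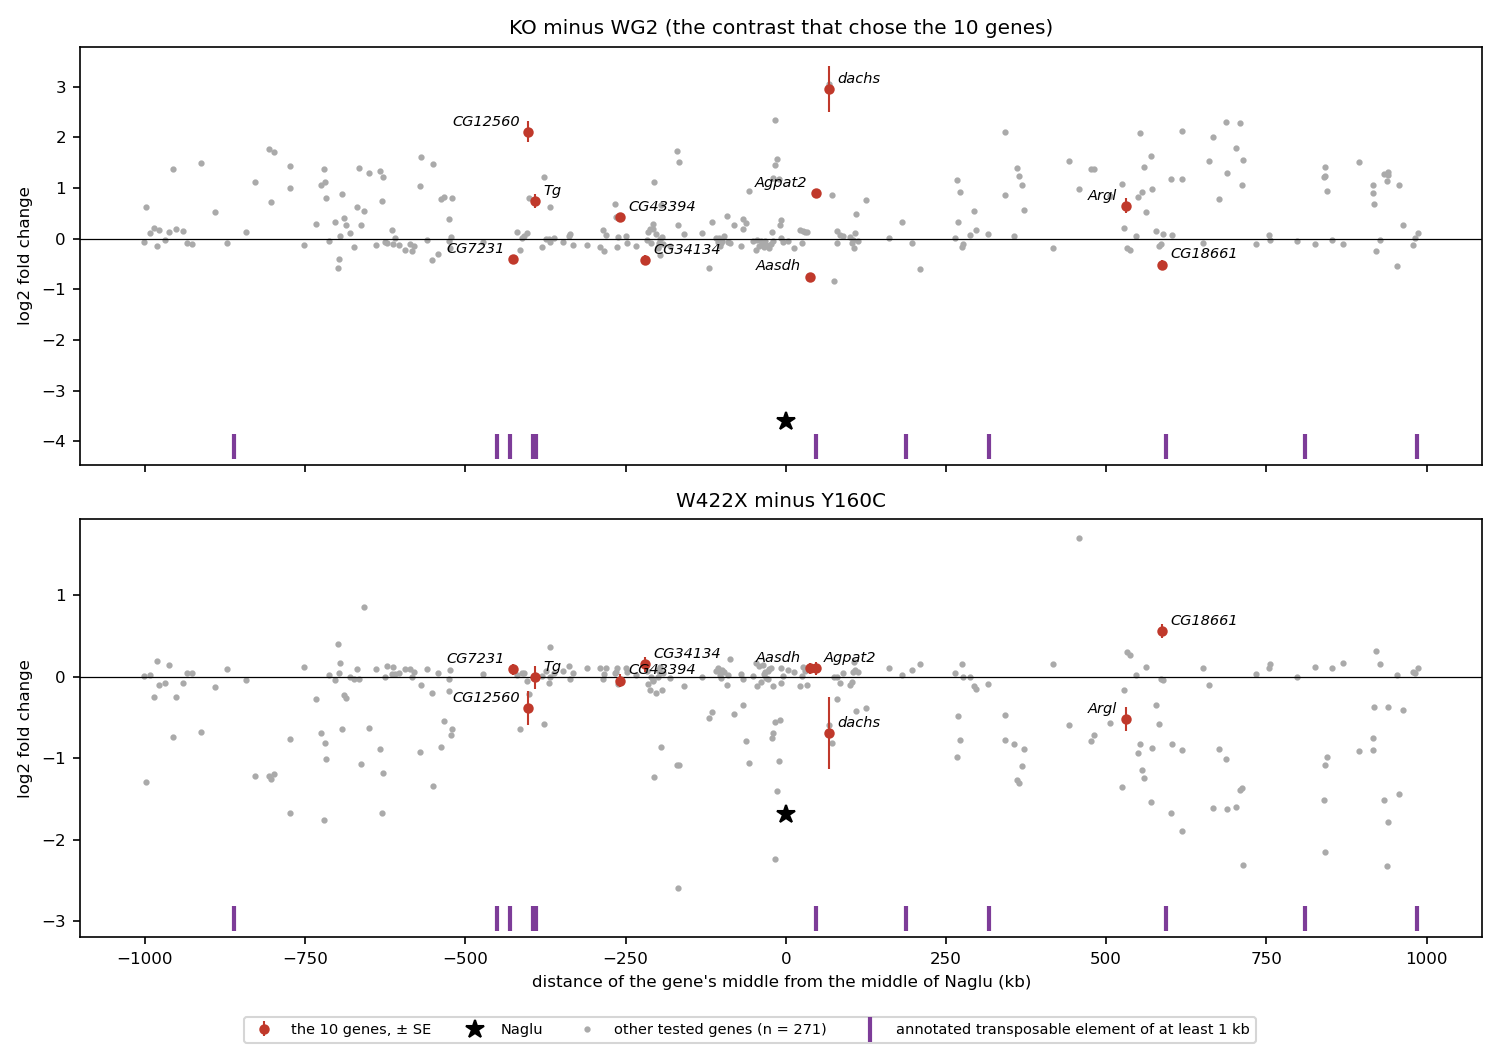
Log2 fold change (y axis) of every tested gene within 1 Mb of Naglu against the distance of its middle from the middle of Naglu in kb (x axis), for KO against WG2 (top) and W422X against Y160C (bottom); red points with SE bars are the 10 genes, the star is Naglu, and purple ticks mark the 11 annotated transposable elements of at least 1 kb. In the top panel the red points lie on both sides of Naglu and of 0; in the bottom panel the red point farthest right, CG18661, is the only one of the 10 that passed the test.

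The threshold left a few neighbours just outside. Argl was the last gene inside, with an adjusted p of 0.0245 in KO against WG2, and the first outside were CheA29a at 0.0501 and aust at 0.102. CheA29a lies inside the dachs gene on the same strand and shares no exonic base with it. It had 1.27 ± 0.433 CPM in KO, 0.172 ± 0.35 in W422X, 0.275 ± 0.40 in Y160C and 0.258 ± 0.406 in WG2. In the libraries with at most 14000 detected genes, CheA29a averaged 1.15 CPM in KO (n = 8), 0.0751 in W422X (n = 11), 0.0578 in Y160C (n = 9) and 0.148 in WG2 (n = 11). The means of W422X and WG2 rested on W422X female week 3 replicate 1 (1.23 CPM) and WG2 female week 3 replicate 2 (1.47 CPM). Over the 16 groups of genotype, sex and age, it was the gene most like dachs (Pearson r of mean log2 CPM 0.95). Likewise CG12560 was most like dachs (0.92) and CG43394 most like Tg (0.88), whereas the gene most like each of the other 7 lay outside the window or had no position. They were cu for Tg (0.95), Rpt4 for CG7231 (0.94), CG8149 for CG18661 (0.88), Tudor-SN for CG34134 (0.86), CG6424 for Aasdh (0.82), Obp57a for Argl (0.81) and an identifier with no symbol for Agpat2 (0.95). The groups include those of KO and WG2, whose difference chose the genes. A high r between genes chosen in the same direction, such as CG12560 and dachs or CG43394 and Tg, is favoured by that choice. CheA29a lay just outside the same threshold and was higher in KO, so its r with dachs is not independent of it either. All these values describe 16 group means that share genotypes and libraries, and several rest on the 2 KO libraries with high haemocyte markers. Without those libraries r was 0.64 for Tg and cu and 0.81 for CG43394 and Tg. It was 0.75 for CG7231 and Rpt4 and 0.67 for Aasdh and CG6424, and other genes were most like these 4. Tg was then most like Agpat2 (0.86) and Aasdh most like CG34134 (0.77), both inside the window. For Tg and Aasdh a most alike gene outside the window was therefore seen only with all libraries. CG43394 was then most like Cyp6g2 (0.92) and CG7231 most like CG4230 (0.93). For dachs and CheA29a r was 0.95 and for CG12560 and dachs 0.92, although CG12560 was then most like Hsp70Bbb (0.92).

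Along the chromosome, 10 of 281 genes (3.56%) passed in KO against WG2 within 1 Mb of Naglu, 5 of 331 (1.51%) from 1 to 2 Mb, 31 of 2426 (1.28%) on 2L beyond 2 Mb, and 71 of 12768 (0.556%) off 2L. Without the 2 KO libraries with high haemocyte markers the counts were 7 of 289 (2.42%) within 1 Mb, 0 of 333 from 1 to 2 Mb, 7 of 2497 (0.28%) on 2L beyond 2 Mb and 14 of 13068 (0.107%) off 2L. Without the 9 libraries with over 14000 detected genes they were 9 of 261 (3.45%), 3 of 323 (0.929%), 18 of 2280 (0.789%) and 23 of 12244 (0.188%). With all libraries, the 5 genes at 1 to 2 Mb were CG33723, sens-2, bsk, CG4957 and CYLD. W422X had 0 of 281 called against WG2 within 1 Mb (0.373% over all genes) and Y160C had 2 of 281 (0.712%, against 0.31% over all genes). CG18661 is among those of Y160C, which is a description only, since the WG2 libraries also served to choose it. These counts come from comparisons that share WG2 libraries, and no test was made between them.

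What the 10 genes share beyond position was looked at in the BDGP6.54 annotation after their values were known, so the following is a description. Mobile elements of the roo, copia, Doc and 297 families are retrotransposons, which often differ in position between fly strains. Of the 10 genes 3 (30%) have a gene body that an annotated element of at least 1 kb overlaps in full or in part, and 6 (60%) lie within 5 kb of one. Of the 271 other tested genes in the window 2.21% are overlapped by such an element and 5.9% lie within 5 kb of one. The shares were 3.24% and 9.67% for all tested genes with a position. Among the 104 other genes with a position that passed in KO against WG2 they were 4.81% and 11.5%. For the 36 of these on 2L they were 0% and 2.78%. Agpat2 contains a roo element of 9113 bases, which lies 2.9 kb from Aasdh and 5.23 kb from dachs. Tg contains a copia and a Doc element, and CG12560 lies 4.19 kb from the copia element. CG7231 overlaps the end of a 297 element, with 106 exonic bases shared, and CG18661 lies 1.79 kb from another roo element. Like dachs, CG34134, CG43394 and Argl have none within 5 kb, and neighbours of a single element are not independent of each other. The annotation is of the reference strain. Whether WG2, KO or the other lines carry these elements was not tested, since gene counts do not show it.

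Overlap of exons with other genes was small. CG7231 shared 70 of its exonic bases with Snoo (3.69%) and 106 with the 297 element (5.59%), and Argl shared 161 with CG9515 (8.12%) and 19 with Tsp29Fb. For the other genes the shared bases were 8 (CG18661) or 0. No source used here gives the strand setting of the counting, and reads from those stretches therefore cannot be told apart.

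Whether the KO difference of the 10 genes depended on age or sex was tested as an interaction. Both interactions are built from the KO and WG2 libraries that chose the genes, so they are not independent of that choice. The shares of all genes given beside them are therefore not a like background. With age, 0 of 10 passed in edgeR (0.215% of all genes did), 1 of 10 reached an unadjusted p under 0.05 (5.88% of all genes), and none passed in DESeq2 (0 of 10). The lowest was Tg, at 0.59 ± 0.27 on the log2 scale with an adjusted p of 0.788. With sex, 0 of 10 passed in edgeR (0.152% of all genes), 1 of 10 reached an unadjusted p under 0.05 (2.55% of all genes), and in DESeq2 again 0 passed. Here too it was Tg, at 0.69 ± 0.27 with an adjusted p of 1. The 2 libraries with high haemocyte markers are both KO females at week 3, and without them 0 of 10 passed in either interaction. Without the third library of that group, replicate 2, Tg passed in both, at 0.78 ± 0.20 with age (adjusted p = 0.0407) and 0.94 ± 0.20 with sex (adjusted p = 0.00471). The largest SEs were those of dachs, 0.86 with age and 0.87 with sex.

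Between week 3 and week 0, over all 4 genotypes, 6 of the 10 genes changed, against 44.5% of all tested genes, so their share was not far from the background. They divide into 3 that rose (26.4% of all genes) and 3 that fell (18.1%). CG7231 fell at week 3 by 0.40 on the log2 scale (SE 0.05, edgeR adjusted p = 7.3e-09). Within genotypes its change was -0.51 ± 0.09 in KO, -0.34 ± 0.09 in W422X, -0.43 ± 0.09 in Y160C and -0.33 ± 0.09 in WG2. Agpat2 rose by 0.30 ± 0.06 (adjusted p = 0.000129). By genotype the change of Agpat2 was 0.01 ± 0.12 in KO, 0.44 ± 0.12 in W422X, 0.44 ± 0.12 in Y160C and 0.29 ± 0.12 in WG2, and the difference between KO and WG2 in this change (-0.28 ± 0.17) did not pass. Tg rose by 0.36 ± 0.10 (adjusted p = 0.00356), and without the 2 KO libraries with high haemocyte markers its change was 0.14 ± 0.06 (adjusted p = 0.0673). Without WG2 male week 3 replicate 1 the change of Tg was 0.24 and did not pass. CG43394 rose by 0.14 ± 0.05, and CG18661 and Aasdh fell by 0.19 and 0.14, each with an adjusted p of 0.0148 to 0.0344. Without the 9 libraries with over 14000 detected genes, all of them at week 3, those 3 changes were 0.07, -0.03 and -0.02 and none passed. With single libraries left out, CG43394 missed the threshold in 23 of 48 fits and CG18661 and Aasdh in 11 each. The dachs gene changed by 0.41 ± 0.31, CG12560 by 0.33 ± 0.15, Argl by 0.14 ± 0.11 and CG34134 by -0.01 ± 0.07, and none of the 4 passed.

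**Figure D5:**
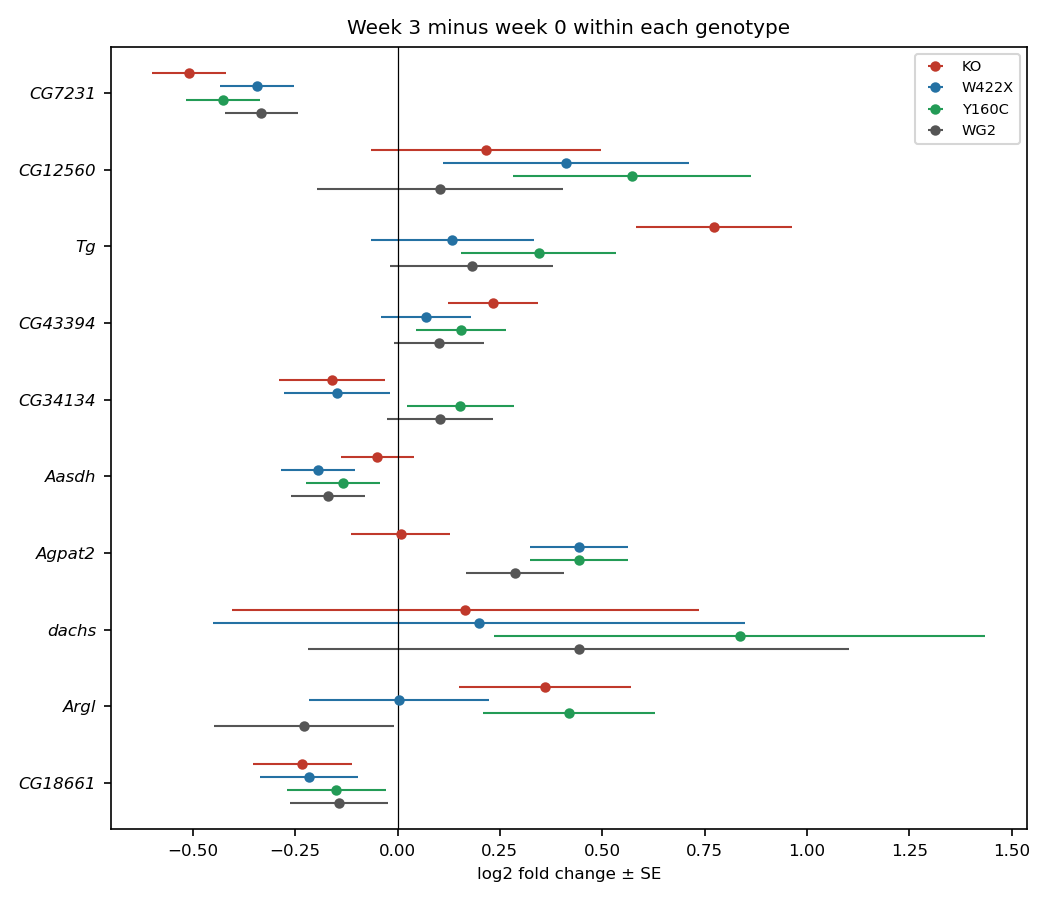
Log2 fold change of week 3 against week 0 (x axis, ± SE) of each of the 10 genes within each genotype, from the same edgeR fit. All 4 genotypes lie below 0 for CG7231, between -0.51 and -0.33, and for Agpat2 the KO point lies at 0.01 while the other 3 lie at 0.29 to 0.44.

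Sex was compared last. Over all genotypes and ages, females had less CG18661 than males, at 10 ± 2.45 CPM in females and 11.7 ± 2.78 in males (n = 24 each), with a log2 fold change of -0.22 ± 0.06 and an edgeR adjusted p of 0.0135. It was 1 of 10 to pass, against 10.1% of all genes, and it did not pass without the 2 KO libraries with high haemocyte markers (adjusted p = 0.107), nor with any 1 of KO female week 0 replicate 2, W422X female week 0 replicate 3, W422X male week 0 replicate 1 and Y160C male week 0 replicate 3 left out (0.0552 to 0.0643). The other 9 genes lay between -0.11 ± 0.11 and 0.12 ± 0.10.

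Known partners of dachs, Agpat2, Argl, Tg and Aasdh were examined as lists. Of 47 such genes tested, 0 passed in KO against WG2 in edgeR, where 0.747% of all tested genes did, and by DESeq2 0 passed. An unadjusted p under 0.05 was reached by 10 of the 47 (21.3%), against 14.7% of all tested genes. Without the 2 KO libraries with high haemocyte markers it was reached by 2 of the 47 (4.26%), against 4.18% of all tested genes. The 18 genes of the Fat, Dachsous and Hippo pathway had a median log2 fold change of -0.04, beside 0.02 for all tested genes. The median was -0.05 for the 10 genes of glycerolipid synthesis and -0.04 for the 7 enzymes of arginine metabolism and the urea cycle. It was -0.13 for the 3 tested genes of a list written for lysine breakdown (BckdhA, CG9547 and Aldh7A1). Of that list LKRSDH and Gcdh were not matched, and BckdhA is named for an enzyme of branched-chain amino acid breakdown. The 9 clotting genes had a median of 0.31, and of -0.22 without those 2 libraries. Among these Hml, a haemolymph clotting protein of haemocytes, averaged 1160 ± 2590 CPM in KO and 131 ± 76.8 in WG2; without the 2 KO libraries its KO mean was 66.9 ± 33.6 CPM (n = 10). Hml is also 1 of the 6 haemocyte markers, and their sum was high in the 2 KO libraries named above mainly through Hml. The clotting gene fon averaged 22.4 ± 21.5 CPM in KO (13.9 ± 8.17 without the 2 libraries) and 15 ± 7.21 in WG2. Leaving out 1 library at a time called at most 1 of the 47, which was Hml (0.71 ± 0.14, adjusted p = 0.00106) without KO female week 3 replicate 2 and Pis, an enzyme of phosphatidylinositol synthesis (-0.37 ± 0.08, adjusted p = 0.0136), without WG2 female week 3 replicate 2.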

How the data were processed

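The deposited table holds unnormalised counts of reads for each gene in each of the libraries, and the length of each gene. The submitters' processing notes name Subread without a version, and the aligner, genome build and strand setting are not given in the sources used here. The values are whole numbers with differing totals. No column belonged to other samples (0 columns). Of 17490 identifiers, 17288 matched a gene in BDGP6.54, from which names and positions are taken. Low genes were removed with filterByExpr (16 groups, count of at least 10, total of at least 15), leaving 15807 to test with 1683 removed; all 10 neighbours passed it. Counts were fitted in R 4.3.3 with edgeR 4.0.16 (TMM, glmQLFit with robust=TRUE, glmQLFTest, 1 mean per group, 48 libraries, 32 residual degrees of freedom) and limma 3.58.1 loaded, and p-values were adjusted over all tested genes within a comparison. A gene passed at an adjusted p under 0.05. CPM and RPKM use TMM-scaled library sizes and the deposited lengths, errors are SD over libraries unless SE is named, and the SE of a log2 fold change is its size divided by the square root of F. The fit was tested on simulated data.

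The 10 genes, the pathway and marker lists and the comparisons were chosen with earlier results of these data known. The alternatives were RLE scaling, no filter on low counts, DESeq2 1.42.0, only the compared genotypes, the replicate number as a block, each library left out, other window sizes, and sets of libraries left out. Named besides the 10 are genes next to Naglu, those nearest the threshold, called genes up to 2 Mb away, genes of the window called in W422X against Y160C, the gene most like each of the 10, and genes of the lists. Hml and fon were named after their values were seen. No sequences are printed.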

Additional observations from a re-analysis of the deposited data

Results flagged for a closer look

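Among 80 sets of 6 libraries (each of the 10 genes in each genotype and age), 8 had a highest or lowest library farther from the rest than Dixon's 95% limit, where chance gives about 1 in 20. In W422X at week 3, female replicate 1 was apart in 3 genes: dachs stood at 23 CPM, against 0.668 to 1.72 CPM in the other 5 libraries, CG12560 at 2.69 CPM against 0.602 to 1.09, and CG7231 at 20.0 CPM against 25.5 to 27.6. In WG2 at week 3, female replicate 2 had 8.86 CPM of dachs against 1.44 to 3.62 in the others. In Y160C at week 3, male replicate 3 had 11.2 CPM of Argl against 3.98 to 6.47. These 3 libraries are among the 9 with over 14000 detected genes, and the part of that number in their values was not tested. In KO at week 3, female replicate 3, a library with high haemocyte markers, had 37.1 CPM of CG43394 against 22.5 to 27. Argl also stood apart in W422X male week 0 replicate 1, at 4.22 CPM against 3.26 to 3.53, and in WG2 female week 0 replicate 3, at 5.41 CPM against 3.04 to 3.78.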

How the results depend on the processing

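The KO against WG2 sign of all 10 genes was kept in each of 55 alternatives. These refit all or part of the libraries that chose the genes, so a kept sign is favoured by that choice. Log2 fold changes were 2.93 to 3.21 for dachs, 2.03 to 2.22 for CG12560, 0.85 to 0.99 for Agpat2 and -0.78 to -0.67 for Aasdh. Tg was at 0.33 without the 2 KO libraries with high haemocyte markers. It was at 0.35 without the 9 with over 14000 detected genes, a setting chosen after seeing the data. Not all 10 passed in every setting: 7 did in a fit of KO and WG2 alone (not Tg, adjusted p = 0.0752, Argl, 0.0503, or CG34134, 0.0679), 7 without the 2 KO libraries (not Tg, Argl or CG34134) and 8 without the 9 (not Tg, 0.266, or Argl, 0.376). CG18661 passed in W422X against Y160C in all 55 (0.50 to 0.60). Without single libraries, the genes of the 10 that passed numbered 1 to 2 in that comparison, 0 to 1 in the interaction of KO with age and in that with sex, 4 to 6 with age and 0 to 1 with sex, and partner genes in KO against WG2 numbered 0 to 1. Without the 2 KO libraries 2 of the 10 passed with age and 0 with sex, and without the 9 libraries 3 and 0. Of the genes near Naglu, W422X against Y160C called 3 within 1 Mb, 0 within 0.5 Mb and 9 within 2 Mb; within 1 Mb it called 5 by DESeq2, 1 in a fit of the compared genotypes alone, and 1 to 8 without single libraries, with 8 when W422X female week 3 replicate 1 was left out. Over all genes, KO against WG2 called 118, but 257 by DESeq2, 55 with the compared genotypes alone, 29 without the 2 KO libraries and 54 without the 9. W422X against Y160C called 70, and 118 by DESeq2. The interaction with age called 34, and 86, 1, 0 and 0 in the same 4 settings; that with sex called 24, and 63, 1, 1 and 0. Females against males called 1602, and 1060 without the 2 KO libraries. With age, 4175 of 7038 calls were higher at week 3, and 6241 of 8964 by DESeq2. Why these counts differ between settings was not tested. Libraries with the same replicate number in the sample title did not deviate together. Of 360 such pairs 129 had r over 0.1, and 16 of 48 libraries were nearest to their own number. The median r was -0.02 for same-number pairs and 0.01 for other pairs. The deposited column names number some libraries otherwise, and pairing by those numbers was not examined. With the title number as a block, KO against WG2 called 99 genes. The calls of the 10 were then 1, 0, 0, 6 and 1 for W422X against Y160C, the interactions with age and sex, age, and sex. Counts of a few reads limit CheA29a, aust and CG34181.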
